A study of Arabidopsis thaliana with 12 samples.

Results

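EXPA7 (AT1G12560) and EXPA18 (AT1G62980) encode the alpha-expansins of root hair cells in Arabidopsis thaliana. Both genes were chosen by name, and each had 1 probe set annotated to it alone, so that 2 of the 22746 probe sets other than controls are described here. Both lie on chromosome 1 by their locus tags. Expansins are secreted proteins that loosen the cell wall without cutting its polymers, which lets turgor stretch the wall. In roots, each hair is an outgrowth of a single epidermal cell that elongates at its tip. EXPA7 and EXPA18 are transcribed in hair-forming cells from about the time a bulge appears, and they are widely used as markers of hair differentiation. Their transcription depends on basic helix-loop-helix factors of the RHD6 and RSL class, and auxin and ethylene promote hair growth through that class.

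The series holds 12 Affymetrix ATH1 arrays, 1 for each RNA sample, in 4 groups of 3. They are arr10 arr12 roots with trans-zeatin, arr10 arr12 roots with DMSO, wild-type Col-0 roots with trans-zeatin and wild-type Col-0 roots with DMSO. Trans-zeatin is a natural cytokinin and DMSO its solvent; ARR10 and ARR12 encode type-B response regulators, which switch on genes at the end of the cytokinin relay. The mutant carries 1 insertion allele of each gene, SALK_098604 and SALK_054752, so both mutant groups come from a single allele combination. The labels give an age of 2 weeks on vertical agar plates for all groups, and neither the concentration nor the duration of the treatment. The tissue label says roots, although the extraction protocol speaks of seedlings, and it is not said whether plants were pooled or replicates grown apart. The p-values therefore measure the spread between these arrays, which may be technical. ARR10 and ARR12 had no probe set with an entry in the annotation used and were not analysed here.

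The deposited values are MAS5 signals, in a linear and arbitrary unit, and their median per array ran from 39.3 to 41.6. The 3 wild-type DMSO arrays stood apart from the others on the first principal component of all tested probe sets, which took 29.1% of the variance. Their scores were 27.3, 18.5 and 14.7, against at most 3.96 on any other array. Every value below that is set against wild type with DMSO rests on these 3 arrays. The root label was set against 2 photosynthesis genes, and both gave signal: LHCB4.1, a light-harvesting protein, averaged between 200 and 299 over the 4 groups and RCA, rubisco activase, between 143 and 213.

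EXPA7 signal was highest in wild-type roots with DMSO. It was 66.0, 61.4 and 73.0 in arr10 arr12 roots with trans-zeatin. It was 61.6, 97.2 and 76.3 in arr10 arr12 roots with DMSO. It was 75.9, 69.5 and 66.9 in wild-type roots with trans-zeatin, against 138, 109 and 105 in wild-type roots with DMSO. All 3 wild-type DMSO arrays lay above the other 9, the nearest of which was arr10 arr12 DMSO replicate 2. That replicate also made arr10 arr12 with DMSO the group with the widest spread relative to its mean, with a coefficient of variation of 22.8%, while wild type with trans-zeatin had 6.56%.

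EXPA18 had the same group on top with less separation. Its signal was 98.4, 100 and 112 in arr10 arr12 roots with trans-zeatin. It was 102, 109 and 94.5 in arr10 arr12 roots with DMSO. It was 119, 101 and 102 in wild-type roots with trans-zeatin, against 177, 149 and 118 in wild-type roots with DMSO. The lowest wild-type DMSO array, replicate 3 at 118, lay just under the highest wild-type trans-zeatin array, replicate 1 at 119, so these groups overlapped. The spread was widest in wild type with DMSO, with a coefficient of variation of 19.99%, and lay between 7.03% and 9.59% in the other 3 groups.

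**Figure D1:**
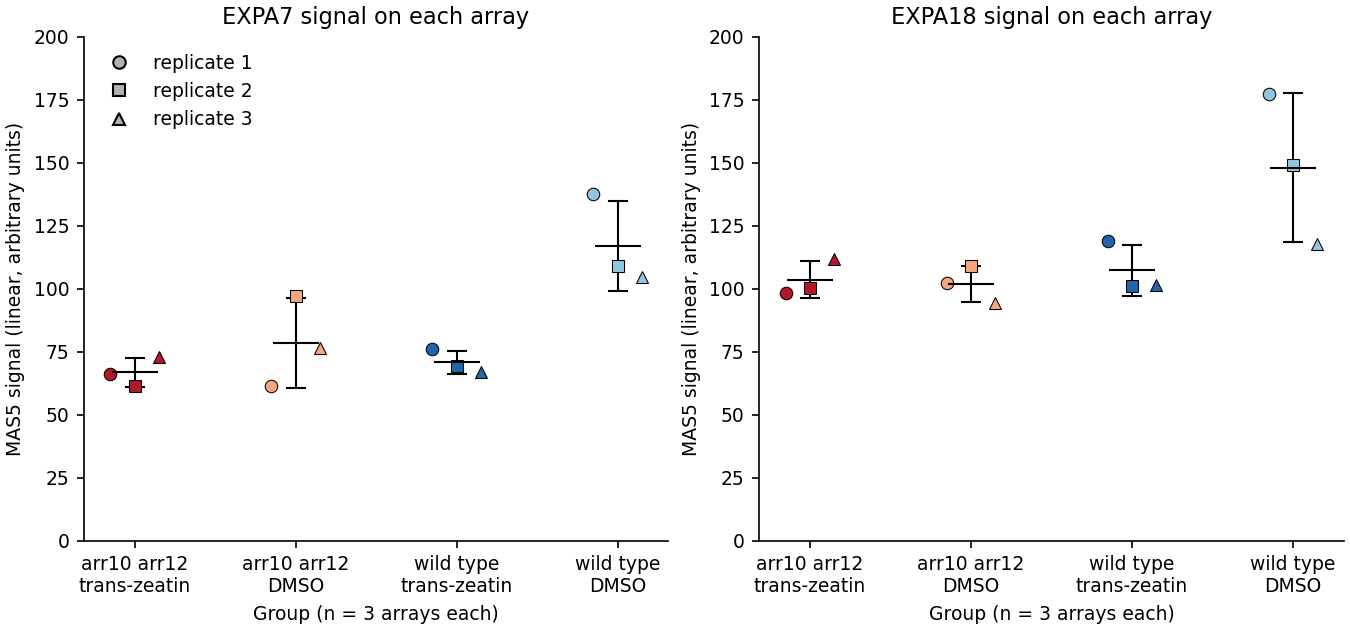
MAS5 signal (linear, arbitrary units) of EXPA7 (left) and EXPA18 (right) on each array, with symbols for replicates, the horizontal mark for the group mean and bars for ± SD (n = 3 arrays). For EXPA7 the wild-type DMSO arrays, at 105 to 138, lie above all others; for EXPA18 the lowest of them, 118, falls below the highest wild-type trans-zeatin array, 119.

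The order of the group means, from low to high, was arr10 arr12 with trans-zeatin, wild type with trans-zeatin, arr10 arr12 with DMSO and wild type with DMSO for EXPA7, at 66.8 ± 5.81, 70.8 ± 4.64, 78.4 ± 17.9 and 117 ± 17.9 (SD, n = 3 each). For EXPA18 it was arr10 arr12 with DMSO, arr10 arr12 with trans-zeatin, wild type with trans-zeatin and wild type with DMSO, at 102 ± 7.22, 104 ± 7.29, 107 ± 10.3 and 148 ± 29.6 (SD, n = 3 each). For each gene the lower 3 means differed by less than the widest SD among them, and their order among themselves differed between the genes. Roots were measured in bulk, so fewer hair-forming cells and less transcript per cell cannot be told apart.

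The first comparison asked what trans-zeatin did to both transcripts in roots with ARR10 and ARR12. Both fell in wild type. EXPA7 averaged 70.8 under trans-zeatin and 117 under DMSO, which is 39.6% lower, and EXPA18 averaged 107 under trans-zeatin and 148 under DMSO, 27.5% lower. On the scale of log2(signal + 6.65), which shrinks differences of dim probe sets most and those of these genes little, the change was -0.67 ± 0.14 for EXPA7 (SE; 95% interval -0.97 to -0.37; limma, Benjamini-Hochberg adjusted p = 0.0072 over all probe sets tested). For EXPA18 it was -0.43 ± 0.13 (95% interval -0.69 to -0.16; limma adjusted p = 0.046). Of the 13647 probe sets tested, 4.86% fell by the same rule, and 13.6% had all 3 trans-zeatin arrays below all 3 DMSO arrays, as EXPA7 did and EXPA18 did not. The median change over all probe sets tested was 0.025.

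EXPA7 kept its call in all 21 alternative settings, with a change of -0.74 to -0.55. The EXPA18 call was lost in 12 of 21, among them the settings without any 1 of the 3 wild-type trans-zeatin arrays (-0.50, -0.39 and -0.39) and without wild-type DMSO replicate 1 (-0.29, adjusted p = 0.20) or 2 (-0.41, adjusted p = 0.12). Wild-type DMSO replicate 1 was both the array with the highest first component score, 27.3, and the one with the highest signal of both genes. The part of that component in the result was not tested, and the EXPA7 change without this array was -0.55 (adjusted p = 0.039).

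In arr10 arr12 roots neither gene passed the test for a response to trans-zeatin. EXPA7 averaged 66.8 under trans-zeatin and 78.4 under DMSO, a log2 change of -0.19 ± 0.14 (SE; 95% interval -0.49 to 0.10; limma adjusted p = 0.75). EXPA18 averaged 104 under trans-zeatin and 102 under DMSO, a change of 0.022 ± 0.13 (95% interval -0.25 to 0.29; limma adjusted p = 0.98). The interval for EXPA7 includes falls of up to 0.49, larger than the EXPA18 fall in wild type, so a response of that size in the mutant is within the error of this measurement. Of all probe sets tested, 1.24% were called in this comparison, in either direction.

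The difference between these responses was tested directly as the interaction of genotype and treatment. It was 0.48 ± 0.20 for EXPA7 (SE; 95% interval 0.056 to 0.90), with the mutant response the smaller fall. For EXPA18 it was 0.45 ± 0.18 (95% interval 0.072 to 0.83). The unadjusted limma p was 0.029 for EXPA7 and 0.023 for EXPA18, and after adjustment neither passed (limma adjusted p = 0.41 and 0.40). For this term 0.044% of all probe sets tested, 6 of them, passed, while 1476 had an unadjusted p under 0.05. A difference in response between genotypes was thus not shown for either expansin, and the intervals of both leave out 0 before adjustment.

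**Figure D2:**
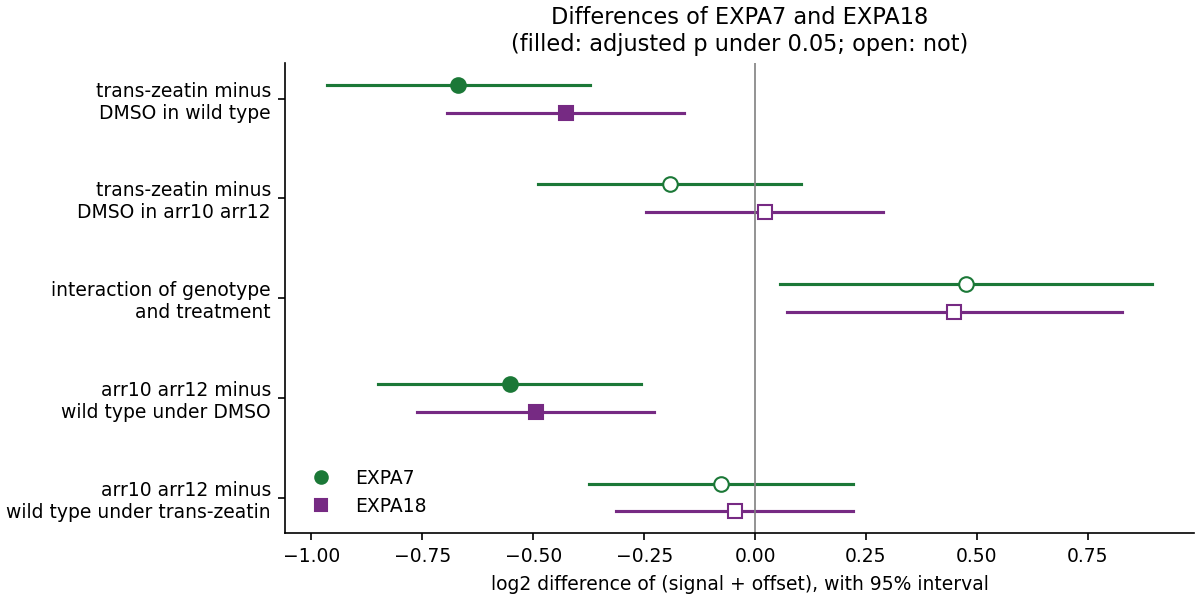
Log2 differences of EXPA7 (circles) and EXPA18 (squares) in the 5 comparisons, with 95% intervals from the moderated fit; filled symbols mark an adjusted p under 0.05. The filled symbols are those of the 2 comparisons set against wild type with DMSO, at -0.67 and -0.43 for trans-zeatin and at -0.55 and -0.49 for the mutant.

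Without added cytokinin, both transcripts were lower in arr10 arr12 than in wild type. Under DMSO, EXPA7 averaged 78.4 in arr10 arr12 and 117 in wild type, 33.1% lower, and EXPA18 averaged 102 in arr10 arr12 and 148 in wild type, 31.1% lower. The log2 differences were -0.55 ± 0.14 for EXPA7 (SE; 95% interval -0.85 to -0.26; limma adjusted p = 0.035) and -0.49 ± 0.13 for EXPA18 (95% interval -0.76 to -0.23; limma adjusted p = 0.036). For both genes the 3 mutant arrays lay below the 3 wild-type arrays. Among all probe sets tested, 2.98% were called lower in this comparison and 11.4% had groups that did not overlap with the mutant lower. This comparison and the wild-type response share the 3 wild-type DMSO arrays, so the falls in both are not separate evidence.

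These calls were lost in 7 of 21 alternative settings for EXPA7 and in 8 of 21 for EXPA18. Without wild-type DMSO replicate 1 the differences were -0.44 for EXPA7 (adjusted p = 0.16) and -0.36 for EXPA18 (adjusted p = 0.16). Without wild-type DMSO replicate 2 they were -0.60 (adjusted p = 0.077) and -0.48 (adjusted p = 0.11). Without arr10 arr12 DMSO replicate 1 they were -0.41 (adjusted p = 0.17) and -0.50 (adjusted p = 0.11). Without arr10 arr12 DMSO replicate 3 they were -0.55 (adjusted p = 0.066) and -0.44 (adjusted p = 0.088), and without replicate 2 of that group EXPA18 was at -0.54 (adjusted p = 0.081). Leaving out wild-type trans-zeatin replicate 2, which is no part of the contrast but of the shared spread, gave adjusted p = 0.052 for EXPA7 and 0.051 for EXPA18.

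Some markers of other cell types also differed between genotypes. Under DMSO 2.98% of all probe sets tested were called lower in the mutant. Both measured photosynthesis genes were lower in the mutant under DMSO, LHCB4.1 by -0.56 ± 0.094 (limma adjusted p = 0.0036) and RCA by -0.55 ± 0.11 (limma adjusted p = 0.013, lost in 4 of 21 alternative settings). They are 2 of 4 shoot markers listed, and their summed signal was 331 to 349 in arr10 arr12 with DMSO and 440 to 558 in wild type with DMSO. Of 2 cortex markers, both measured, AT1G09750 was lower (-0.44 ± 0.12, limma adjusted p = 0.047, lost in 12 of 21) and AT1G62500 did not pass (-0.0066). Their summed signal was 267 to 297 in arr10 arr12 with DMSO and 323 to 411 in wild type with DMSO. That gap lay in AT1G09750, which averaged 207 in arr10 arr12 and 283 in wild type, while AT1G62500 averaged 76.2 and 77.1. None of the measured markers was at 0, and their part in the lower expansin signal was not tested. In the wild-type response to trans-zeatin none of the 4 passed: LHCB4.1 had a change of -0.16, RCA -0.015, AT1G09750 -0.20 and AT1G62500 0.12. In that comparison 8.64% of all probe sets tested were called in either direction, so none of 4 is near the background. Between genotypes under trans-zeatin, where EXPA7 and EXPA18 were at -0.077 and -0.046 and did not pass, RCA was lower in arr10 arr12 (-0.50, limma adjusted p = 0.026, lost in 5 of 21 alternative settings) and LHCB4.1 did not pass (-0.34, adjusted p = 0.075). The markers of endodermis, stele, root cap and meristem had no probe set with an entry.

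Under trans-zeatin neither gene passed the test between genotypes. EXPA7 averaged 66.8 in arr10 arr12 and 70.8 in wild type, a log2 difference of -0.077 ± 0.14 (SE; 95% interval -0.37 to 0.22; limma adjusted p = 0.89). EXPA18 averaged 104 in arr10 arr12 and 107 in wild type, a difference of -0.046 ± 0.13 (95% interval -0.31 to 0.22; limma adjusted p = 0.93). The arrays of both groups overlapped for each gene. Here 1.43% of all probe sets tested were called lower. The intervals reach differences of -0.37 and -0.31, so deficits of the mutant up to these sizes are within the error. With the replicate number as a block, which moved the calls over all probe sets to 484, against 316 without it, the adjusted p was 0.88 for EXPA7 and 0.92 for EXPA18.

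The 2 expansins varied together across arrays. Over the 12 arrays, which share 4 groups and are not independent draws, Pearson's r between their log2 signals was 0.86 and Spearman's rho 0.69, given as a description. Over the 9 arrays outside wild type with DMSO r was 0.40, and for the deviations from the group means over all 12 arrays it was 0.63. Ranked by r with EXPA7, EXPA18 came at place 41 among the 13647 probe sets tested and at place 20 among the 7289 with a single gene. The genes were also compared by the size of their change with trans-zeatin. The difference of their log2 signals, whose level has no meaning across 2 probe sets, averaged -0.59 ± 0.062 in arr10 arr12 with trans-zeatin and -0.37 ± 0.27 with DMSO, and -0.56 ± 0.054 in wild type with trans-zeatin and -0.31 ± 0.14 with DMSO (SD, n = 3 each). In wild type the 3 trans-zeatin values, -0.61, -0.50 and -0.56, all lay below the 3 DMSO values, -0.35, -0.43 and -0.16. In arr10 arr12 they overlapped, since DMSO replicate 1 was at -0.68. Among single probe sets, 13.6% of those tested had all 3 wild-type trans-zeatin arrays below all 3 DMSO arrays. The share over other pairs of genes was not computed, and whether EXPA7 fell further than EXPA18 was not tested.

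**Figure D3:**
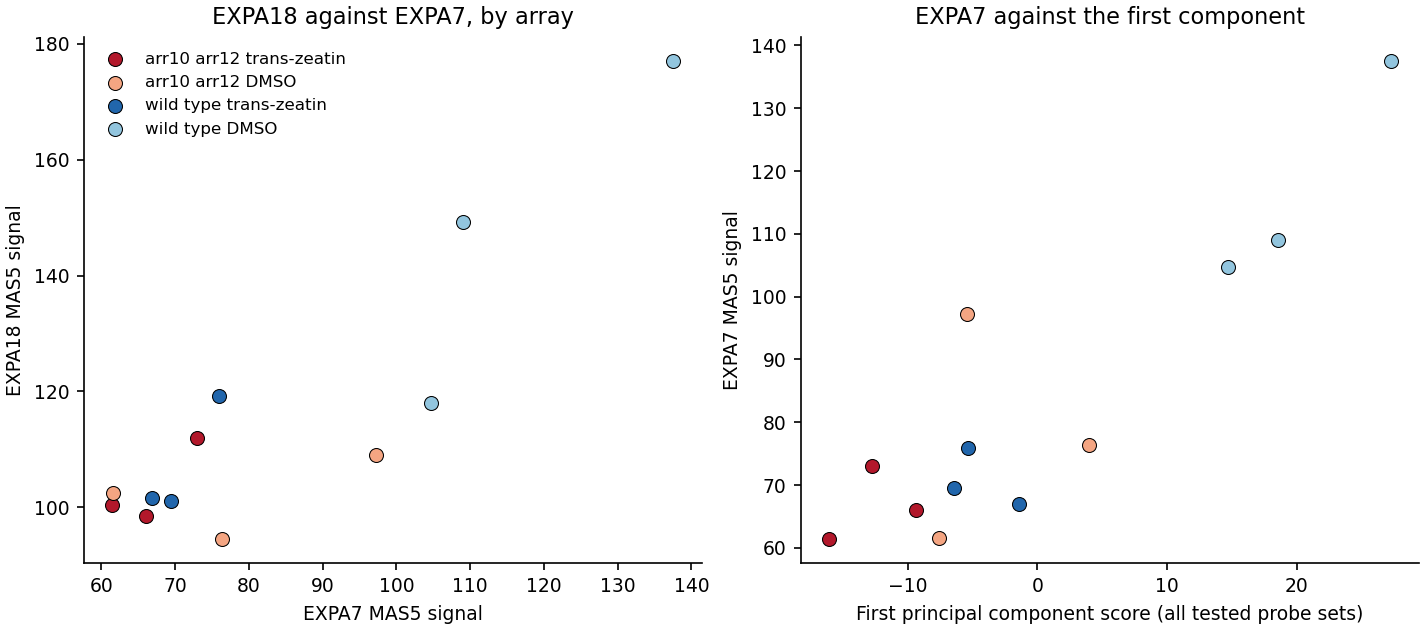
Left, MAS5 signal of EXPA18 against EXPA7 on each of the 12 arrays; right, EXPA7 signal against the first principal component score of all tested probe sets; colours mark the groups and the axes do not start at 0. The wild-type DMSO arrays, with scores of 14.7 to 27.3, have the 3 highest EXPA7 signals, and arr10 arr12 DMSO replicate 2, at 97.2, is the highest of the others.

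Other genes of root hair walls could be followed only in part. Of 24 genes listed as wall or secreted proteins of root hairs, EXPA7 and EXPA18 included, 4 had a probe set with an entry and 3 passed the filter on low signal. All 3 were called lower with trans-zeatin in wild type, where 4.86% of all probe sets tested were, and 0 of 3 were called in arr10 arr12, where 1.24% were called in either direction, so that 0 of 3 is near the background. Since 2 of the 3 are EXPA7 and EXPA18, AT4G26010 is the 1 further gene in these counts. AT4G26010 stood in wild type at signals of 346, 319 and 299 under trans-zeatin and 532, 457 and 388 under DMSO. These groups did not overlap, with trans-zeatin lower, as for 13.6% of all probe sets tested. Its change was -0.50 ± 0.14 (SE; limma adjusted p = 0.040, lost in 8 of 21 alternative settings). In arr10 arr12 it had a change of -0.24 (adjusted p = 0.66), with an interaction of 0.26 (adjusted p = 0.67), and under DMSO it did not pass between genotypes (-0.34, adjusted p = 0.18).

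The fourth gene, XTH26, encodes a xyloglucan endotransglucosylase, an enzyme that cuts and rejoins wall xyloglucan, and lay below the filter. In the fit without the filter it passed in no comparison. Its change with trans-zeatin was -0.84 ± 0.23 in arr10 arr12 (SE; unadjusted p = 0.0026, adjusted p = 0.17) and -0.72 ± 0.23 in wild type (adjusted p = 0.10), with an interaction of -0.12 (adjusted p = 0.94). Between genotypes it was at -0.73 under DMSO (adjusted p = 0.12) and -0.86 under trans-zeatin (adjusted p = 0.11). Its signal was 5.17, 3.75 and 2.32 in arr10 arr12 with trans-zeatin and 9.40, 13.4 and 13.0 in arr10 arr12 with DMSO. In wild type it was 15.025, 10.3 and 11.2 with trans-zeatin and 38.7, 23.7 and 14.5 with DMSO. The mutant values under trans-zeatin lie below the offset of 6.65, which therefore sets the size of any difference from them. Across the 12 arrays, r with the averaged pattern of EXPA7 and EXPA18 was 0.81 for AT4G26010 and 0.82 for XTH26.

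Of the genes that act before or beside the wall proteins, those given here showed no call. Over all probe sets tested, 8.64% were called in the wild-type response and 5% between genotypes under DMSO. So few genes without a call are near that background. Of 20 tip growth genes listed, 18 had no probe set with an entry. Among genes of tip growth, FER, a receptor kinase needed for intact growing hairs, averaged 511 ± 35.2 with trans-zeatin and 546 ± 40.4 with DMSO in wild type (SD, n = 3 each; log2 change -0.093, adjusted p = 0.55). EIN3, a transcription factor of the ethylene pathway, was the 1 measured gene of 12 auxin and ethylene inputs, at 0.024 in wild type (adjusted p = 0.90). Under DMSO the differences of arr10 arr12 from wild type were -0.13 for FER and -0.0080 for EIN3, with adjusted p of 0.43 and 0.97. Of 9 hair regulators and 10 patterning genes, AT2G14760 and TRY had a probe set with an entry, both below the filter, with group means of 1.00 to 1.79 and 2.69 to 6.50.

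Type-A response regulators are classic early targets of cytokinin, and 2 of the 10 listed, ARR15 and ARR16, had a probe set with an entry; the other 8 had none. ARR15, which damps cytokinin signalling, averaged 22.6 ± 3.48 with trans-zeatin and 6.56 ± 1.97 with DMSO in arr10 arr12, and 59.2 ± 14.0 with trans-zeatin and 10.5 ± 1.94 with DMSO in wild type (SD, n = 3 each). ARR15 passed the filter of 23.5 only through wild type with trans-zeatin, since its other group means lie below that, so it was read in the fit without the filter. There it rose by 1.15 in arr10 arr12 and by 1.92 in wild type (limma adjusted p = 0.014 and 6.7e-05). Under trans-zeatin it was lower in arr10 arr12 than in wild type (-1.16, limma adjusted p = 0.0066). ARR16 lay below the filter and was read in the same fit. In arr10 arr12 it averaged 7.68 ± 2.71 with trans-zeatin and 2.13 ± 1.74 with DMSO and did not pass (0.71, limma adjusted p = 0.25). In wild type it averaged 65.6 ± 5.40 with trans-zeatin and 7.96 ± 4.07 with DMSO, a rise of 2.34 (limma adjusted p = 7.5e-05). The mutant signals of ARR16 and the DMSO signals of both genes in both genotypes lie near or below the offset, which sets part of the size of these values. With an offset of 1 the rise of ARR15 was 1.66 in arr10 arr12 and 2.37 in wild type. With an offset of 16 it was 0.77 and 1.49.

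Within the expansin superfamily the fall of EXPA7 and EXPA18 was not general. Of 34 other expansin genes listed, 16 had a probe set to themselves, 4 shared one and 14 had no entry; 11 of the 16 passed the filter. In wild type 3 of the 11 rose and 1 fell with trans-zeatin, with a median change of 0.15. Of all probe sets tested, 3.78% rose and 4.86% fell. EXPA15 rose by 1.33 ± 0.095, EXPB1, a beta-expansin, by 1.03 ± 0.16 and EXPA8 by 0.73 ± 0.14 (SE; limma adjusted p = 8.9e-07, 9.3e-04 and 0.0041). EXPA8 signal was 43.2, 58.7 and 55.1 with trans-zeatin, against 27.3, 29.1 and 29.9 with DMSO. EXPB1 signal was 131, 115 and 113 with trans-zeatin, against 42.1, 60.01 and 66.6 with DMSO. In both cases every trans-zeatin array lay above every DMSO array, as for 16.2% of all probe sets tested.

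EXLB1, the expansin-like B gene, was the 1 that fell. Its signal was 82.0, 109 and 82.2 with trans-zeatin, against 169, 127 and 127 with DMSO in wild type, a change of -0.60 ± 0.17 (SE; limma adjusted p = 0.043, lost in 7 of 21 alternative settings). In arr10 arr12 its change was -0.54 (adjusted p = 0.18) and its interaction 0.053 (adjusted p = 0.96; 95% interval -0.47 to 0.57). The other 7, EXPA4, EXPA9, EXPA20, EXPB3, EXLA1, EXLA2 and EXLA3, did not pass, with changes of -0.28 to 0.25.

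In arr10 arr12 none of the 11 was called for trans-zeatin, by limma at an adjusted p under 0.05, with a median of 0.040. With 1.24% of all probe sets tested called there, 0 of 11 is near the background. EXPB1 was at 0.65 (adjusted p = 0.070), EXPA8 at 0.39 (adjusted p = 0.25) and EXPA15 at 0.24 (adjusted p = 0.35). EXPA15 was the 1 expansin with a tested difference between the responses. Its signal was 785, 790 and 896 with trans-zeatin and 710, 718 and 666 with DMSO in arr10 arr12, and 932, 1072 and 1123 with trans-zeatin and 375, 404 and 448 with DMSO in wild type. Under DMSO it was also the 1 expansin of the 11 called between genotypes, higher in arr10 arr12 by 0.76, where 2.02% of all probe sets tested were called higher. Its lowest group was wild type with DMSO, which was the highest group of EXPA7 and EXPA18. Under trans-zeatin 0 of the 11 were called between genotypes by limma, against 2.32% of all probe sets tested in either direction, which is again near the background.

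The 4 genes that shared a probe set, EXPA22 with EXP26 and EXPA23 with EXPA25, cannot be told apart within each pair and are not compared. Of the 5 with a probe set of their own below the filter, EXPA16, EXPB2 and EXPB5 had group means of 5.16 to 25.5, and EXPA21 and EXPA24 of 0.33 to 1.52. None of these 5 passed in wild type in the fit without the filter.

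**Figure D4:**
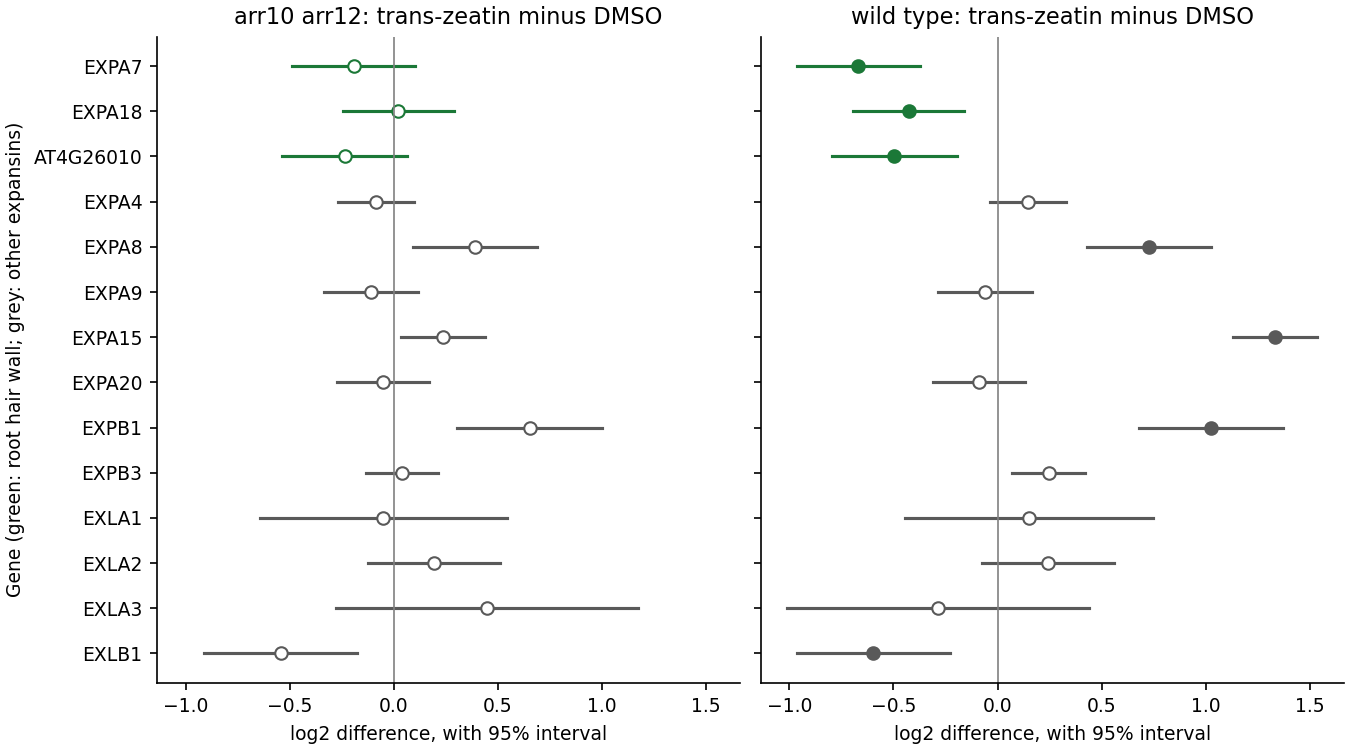
Log2 differences between trans-zeatin and DMSO in arr10 arr12 (left) and wild type (right) for the 3 root hair wall genes (green) and the 11 other expansins (grey) that passed the filter, with 95% intervals; filled points mark an adjusted p under 0.05. In wild type EXPA7, EXPA18, AT4G26010 and EXLB1 are filled to the left of 0 and EXPA8, EXPA15 and EXPB1 to the right, and in arr10 arr12 no point is filled.

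The named genes whose pattern was most like that of the pair were found by Pearson's r between each gene's log2 signal and the average of both expansins, each scaled over the 12 arrays. They were AT1G78020 (r = 0.94), AT1G61360 (0.92), AT5G04960 (0.92), AT1G68820 (0.92) and AT4G28940 (0.92). Since they were chosen for this pattern, their levels are given with no test. AT1G78020 averaged 132 ± 25.5 in arr10 arr12 with trans-zeatin and 165 ± 25.05 with DMSO, and 136 ± 3.22 in wild type with trans-zeatin and 301 ± 66.2 with DMSO (SD, n = 3 each). AT5G04960 averaged 125 ± 11.1 in arr10 arr12 with trans-zeatin and 142 ± 14.9 with DMSO, and 157 ± 34.8 in wild type with trans-zeatin and 217 ± 44.3 with DMSO (SD, n = 3 each). In all 5, as in both expansins, the mean was highest in wild type with DMSO, and wild-type DMSO replicate 1 was the highest array.

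**Figure D5:**
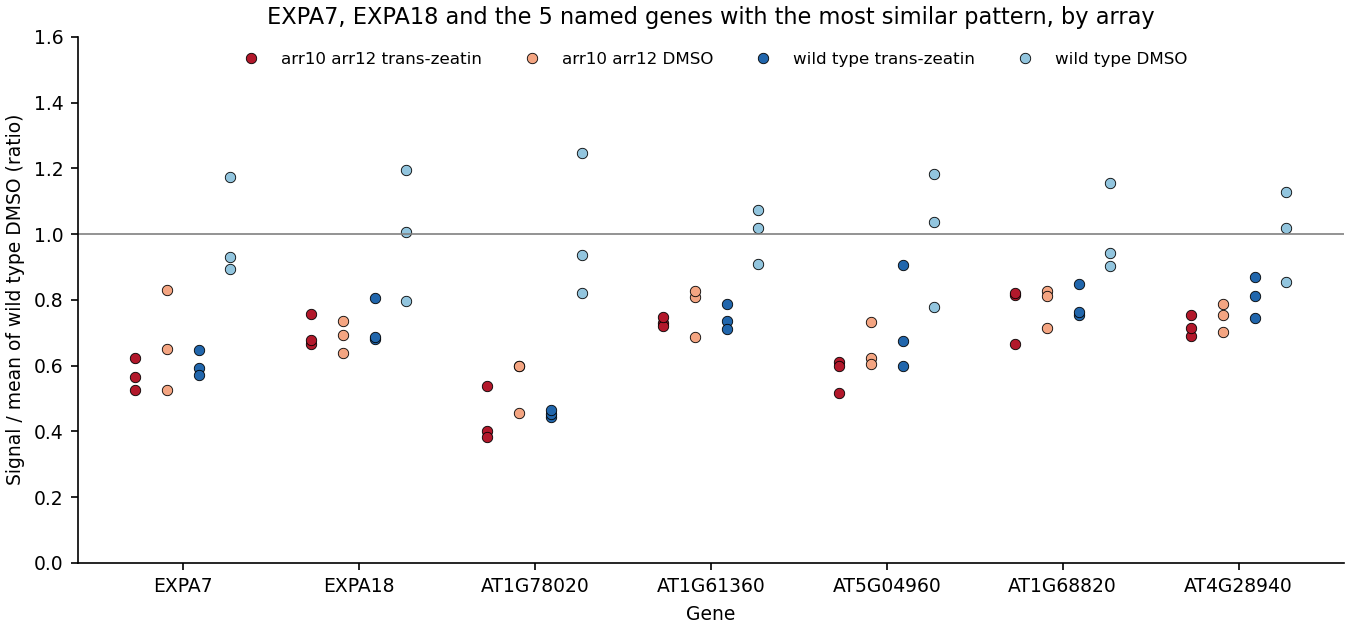
Signal on each array divided by the gene's mean in wild type with DMSO (ratio, linear axis from 0) for EXPA7, EXPA18 and the 5 named genes with the most similar pattern over the 12 arrays; the line marks 1. The wild-type DMSO arrays straddle the line and the other groups lie below it, since the 5 genes were chosen for that pattern.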

How the data were processed

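The authors deposited linear intensity values, 1 signal per probe set and array, from MAS5 and GCOS per the submitters' processing notes; their versions: not given in the sources used here. They were used as deposited, with no further normalization, after 64 controls of 22810 probe sets were left out. Names came from the platform annotation, which listed 14016 probe sets, 13513 with 1 gene, and from the RefSeq gene table of TAIR10.1; genes that these tables do not name are given by locus. 1 measured list member is not reported here.

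Values were put on a log2 scale after 6.65, their 25th percentile, was added. Probe sets with a mean signal above the 40th percentile, 23.5, were tested (13647). The fit used limma 3.58.1 under R 4.3.3, with a mean for each of 4 groups over 12 arrays, an intensity trend, 2-sided tests and Benjamini-Hochberg adjustment over all probe sets tested, at a threshold of 0.05. The number of arrays limits the precision. An exact permutation test of 3 against 3 arrays cannot go below p = 0.1 and was not used for calls. The test was tried on simulated data, and no result given here rests on that trial. Alternatives were 21 other settings. Named were the pair, any list member with its own probe set, and the 5 named genes most like the pair. The members, the lists and the rule were chosen with earlier results of these data known.

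Same-numbered replicates deviated from their group means together under trans-zeatin across genotypes (correlation 0.14 to 0.16 over probe sets). Every pair was also positive in the mutant response (0.05 to 0.15) and between genotypes under DMSO (0.04 to 0.09). In the wild-type response not every pair was (-0.07 to 0.13). The labels do not say what a replicate number shares, so the main fit holds no block, and results with the block are given below.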

Additional observations from a re-analysis of the deposited data

Results flagged for a closer look

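EXPA15, the expansin described beside the pair, responded differently to trans-zeatin in the 2 genotypes by the interaction term itself. The response was 0.24 in arr10 arr12 and 1.33 in wild type on the log2 scale, a difference of -1.10 ± 0.13 (SE; limma adjusted p = 0.0031), and the call was kept in all 20 alternative settings. EXPA7 and EXPA18, with interactions of 0.48 and 0.45, did not pass. The sign differs since EXPA15 rose in wild type, where EXPA7 and EXPA18 had changes of -0.67 and -0.43. In arr10 arr12 these changes were -0.19 and 0.022, so the estimated response was smaller there for EXPA15 and for both of the pair.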

How the results depend on the processing

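The fall of EXPA7 with trans-zeatin in wild type passed in all 21 alternatives. Without the filter, EXPA18 in wild type (-0.43, adjusted p = 0.081) and both genes under DMSO (EXPA7 -0.55, adjusted p = 0.070; EXPA18 -0.49, adjusted p = 0.066) no longer passed, and more probe sets were adjusted for. With the 2 groups compared alone, where fewer arrays give the spread, the same 3 were lost (-0.43, -0.55 and -0.49, with adjusted p of 0.068, 0.060 and 0.058), and without the intensity trend EXPA18 in wild type was lost (-0.43, adjusted p = 0.053; the cause was not tested).

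With each array left out in turn, the trans-zeatin change in wild type ran from -0.74 to -0.55 for EXPA7 and from -0.57 to -0.29 for EXPA18. In arr10 arr12 it ran from -0.34 to -0.038 for EXPA7 and from -0.032 to 0.068 for EXPA18. The interaction ran from 0.33 to 0.63 and from 0.32 to 0.60. The genotype difference under DMSO ran from -0.71 to -0.41 and from -0.64 to -0.36, and under trans-zeatin from -0.14 to -0.024 for EXPA7 and from -0.099 to 0.028 for EXPA18. The uncalled EXPA18 values near 0 thus changed sign, in arr10 arr12 without trans-zeatin replicate 3 (-0.032) or DMSO replicate 3 (-0.028) and under trans-zeatin without wild-type replicate 1 (0.028).

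With the replicate number as a block no call of either gene changed: EXPA7 was at -0.67 (adjusted p = 0.0072) and EXPA18 at -0.43 (adjusted p = 0.033) in wild type. Over all probe sets, the block gave 484 calls against 316 between genotypes under trans-zeatin and 290 against 169 in the mutant response. It gave 934 against 682 between genotypes under DMSO, 1402 against 1179 in the wild-type response and 8 against 6 for the interaction. Over all alternatives the calls ran from 575 to 2203 (1179 as reported) in the wild-type response, 67 to 290 (169) in the mutant response, 4 to 27 (6) for the interaction, 168 to 1321 (682) between genotypes under DMSO and 156 to 484 (316) under trans-zeatin.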
